A study of Arabidopsis thaliana with 9 samples.

Results

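Expansins are small secreted proteins that loosen plant cell walls without cutting wall polymers and so allow cells under turgor to elongate. Alpha expansins, such as the product of EXPA8, act on walls rich in cellulose and xyloglucan at acid pH. EXPB1 and EXPB3 encode beta expansins, a related branch best known from the pollen allergens of grasses. A seedling that germinates without light elongates its hypocotyl and keeps its cotyledons closed and pale, and wall loosening takes part in that elongation. These data hold no measure of growth. Transcript levels of EXPA8 (AT2G40610), EXPB1 (AT2G20750) and EXPB3 (AT4G28250) are described here in seedlings of Arabidopsis thaliana. Each is read by 1 probe set, a group of oligonucleotides on the array designed for 1 transcript, and these 3 probe sets are all that carry the 3 names among 22746 tested. The genes were picked by name from the alpha and beta expansins, with earlier results of these data known, so their number says nothing on its own about the family.

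The 9 arrays came from whole seedlings grown in the dark for 10 days, with 3 arrays for each of 3 lines. The lines were sps1, L17, which the labels call a phyA' line, and wild type, all 3 in the Col-0 background and without any treatment before harvest. What sps1 and L17 carry, how either line was made and whether it is 1 clone are not given in the labels. PHYA encodes phytochrome A, the photoreceptor through which dark-grown seedlings first sense light. No label tells if the 3 arrays of a line stem from separate plantings, and p-values here rest on the scatter among these arrays, which may be technical.

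Signals are linear array units scaled by the authors to a common trimmed mean, and differences were computed on log2(signal + 16), which understates changes at low signal. The median signal of an array lay between 137.6 and 155. Arrays of sps1 and of L17 correlated with their own line at r of at least 0.98 over all probe sets (a correlation across genes, not replicates). The third wild type array stood apart, at 0.954 with the other wild type arrays, and the members' values without it are given below. An adjusted p of 0.05 was passed by 14.6% of all probe sets in sps1 against wild type, by 11.4% in L17 against wild type, and by 6.86% in sps1 against L17. The split depended on the scaling: 45.7% of calls in sps1 against wild type were higher as deposited and 60.2% after centring each array on its median, and in sps1 against L17 45.8% and 59.3%. The centring moved the median log2 difference over all probe sets in sps1 against wild type to 0.10, against -0.01 as deposited. The comparisons of sps1 and of L17 share the same wild type arrays.

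EXPA8 was higher in L17 than in wild type. Its signals in sps1 were 4769, 4505 and 5029, in L17 5804, 5611 and 6616, and in wild type 3760, 4191 and 3130. No 2 lines overlapped: every L17 array lay above every sps1 array, and every sps1 array above every wild type array, the lowest being the third wild type array. L17 arrays were all above wild type arrays for 16.6% of all probe sets, and all above sps1 arrays for 17%. The means were 4768 ± 262 in sps1, 6010 ± 533 in L17 and 3693 ± 533 in wild type (SD, n = 3 each). L17 exceeded wild type by 0.71 ± 0.15 on the log2 scale (SE, limma adjusted p = 0.017), which is 1.63-fold. EXPA8 was thus the 1 of 3 genes called higher in L17, beside 5.32% of all probe sets called higher there, and 6.02% of all probe sets had a log2 difference at least as large.

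For EXPA8 sps1 stood between the other lines and was separated from neither by the test. The log2 difference of sps1 from wild type was 0.38, with a 95% interval of 0.04 to 0.71 that is not adjusted for the number of probe sets (limma adjusted p = 0.129). Against L17 the difference was -0.33, with an interval of -0.66 to 0 (limma adjusted p = 0.25). All 3 sps1 arrays lay above all 3 wild type arrays for 16.5% of all probe sets, so that order is common in these data. Without the third wild type array the difference from wild type was 0.26 in sps1 (limma adjusted p = 0.247) and 0.59 in L17 (limma adjusted p = 0.0281), and that of sps1 from L17 was -0.33 (0.125). The call was lost without L17 replicate 3, the brightest array for this gene (log2 difference 0.64, limma adjusted p = 0.0594).

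**Figure D1:**
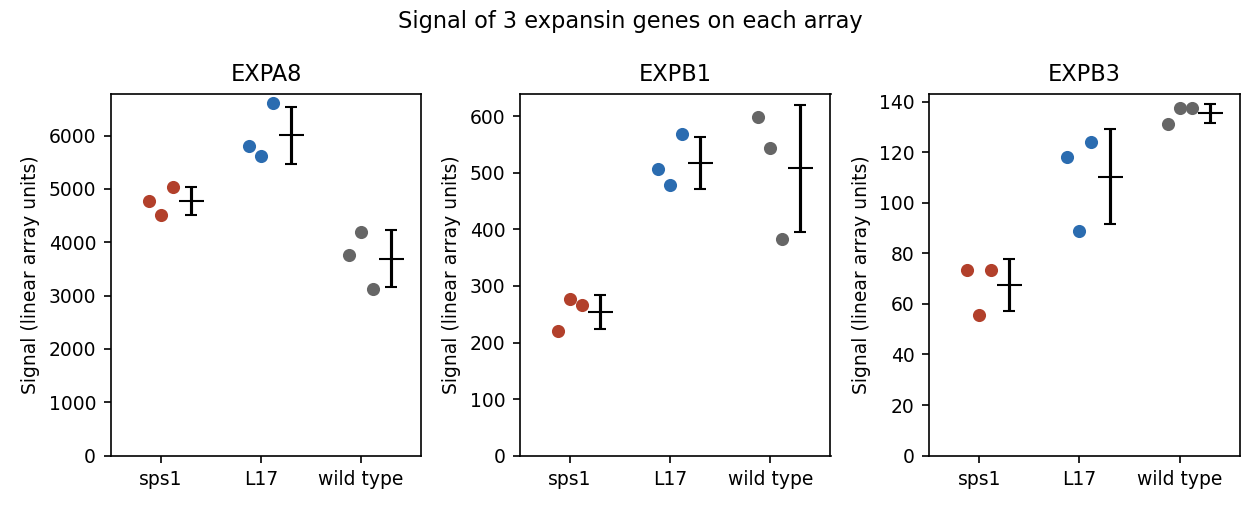
Signal of EXPA8, EXPB1 and EXPB3 in linear array units (vertical axis, from 0) on each array of sps1, L17 and wild type, with the mean and SD of 3 arrays beside the points. EXPA8 was highest in L17 (5611 to 6616), while EXPB1 and EXPB3 were lowest in sps1 (219.7 to 276.3 and 55.58 to 73.55).

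EXPB1 was lower in sps1 than in both other lines, by a similar step in each case. Its signals in sps1 were 219.7, 276.3 and 265.5, in L17 506.9, 477.8 and 568.3, and in wild type 598.7, 543.2 and 382.3. The sps1 arrays lay below all other arrays, an order found for 16.9% of all probe sets against wild type and for 17% against L17, while L17 and wild type overlapped and the third wild type array was the lowest of its line. The means were 253.9 ± 30 in sps1, 517.7 ± 46.2 in L17 and 508.1 ± 112 in wild type (SD, n = 3 each). Against wild type sps1 fell by 0.94 on the log2 scale with an SE of 0.19 (limma adjusted p = 0.0108), a level 0.521 times that of wild type. EXPB1 and EXPB3 were the 2 of 3 genes called lower in sps1 than in wild type, beside 7.94% of all probe sets.

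Against L17 the fall of EXPB1 in sps1 was of similar size. The log2 difference was -0.99 ± 0.19 (SE, limma adjusted p = 0.0161), a level 0.505 times that of L17. It was the 1 of 3 genes called lower in sps1 than in L17, beside 3.72% of all probe sets, and 3.21% of all probe sets had a difference at least as large in that direction. L17 and wild type differed by 0.05 with a 95% interval of -0.37 to 0.47 (limma adjusted p = 0.909), so a change of EXPB1 in L17 of up to about these bounds cannot be told from none. With the third wild type array left out, sps1 differed from wild type by -1.13 (limma adjusted p = 0.00242) and L17 by -0.14 (limma adjusted p = 0.629), and sps1 from L17 by -0.99 (0.00378). The fall against wild type passed with any single array left out, with limma adjusted p between 0.00242 and 0.042. The difference from L17 lost its call without L17 replicate 1 or 3 (limma adjusted p = 0.0518 or 0.06) and without sps1 replicate 1 or 3 (0.0611 or 0.0511), with log2 differences between -1.05 and -0.89 over all single arrays left out.

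EXPB3 had the lowest signals of the 3 probe sets and was lower in sps1 than in wild type. It read 73.26, 55.58 and 73.55 in sps1, 117.9, 88.7 and 123.9 in L17, and 131, 137.5 and 137.4 in wild type. All 3 lines were separate, in the order sps1, L17, wild type from low to high, and the wild type arrays lay close together. Taken pair by pair, sps1 lay wholly below wild type for 16.9% of all probe sets and wholly below L17 for 17%. The share of probe sets with all 3 lines separate in this order was not computed. Means were 67.47 ± 10.3 in sps1, 110.2 ± 18.8 in L17 and 135.3 ± 3.71 in wild type (SD, n = 3 each). Against wild type sps1 fell by 0.87 on the log2 scale with an SE of 0.16 (limma adjusted p = 0.00731), a level 0.549 times that of wild type, and 7.89% of all probe sets fell at least as far. That call stood with any single array left out, with limma adjusted p between 0.00795 and 0.0304, and the log2 difference was -0.86 without the third wild type array.

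L17 lay between the other lines for EXPB3. Its difference from wild type was -0.27 with a 95% interval of -0.63 to 0.08 (limma adjusted p = 0.321), and -0.26 without the third wild type array (0.41). All 3 L17 arrays were below all 3 wild type arrays, as for 14.5% of all probe sets. The difference of sps1 from L17 was -0.59, with an interval of -0.95 to -0.24 and a limma adjusted p of 0.0588. That value was 0.0485 without the third wild type array, which enters this comparison only through the common estimate of the spread. Detection calls were not used here, and EXPB3 signals were below the array median on each of the 9 arrays.

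**Figure D2:**
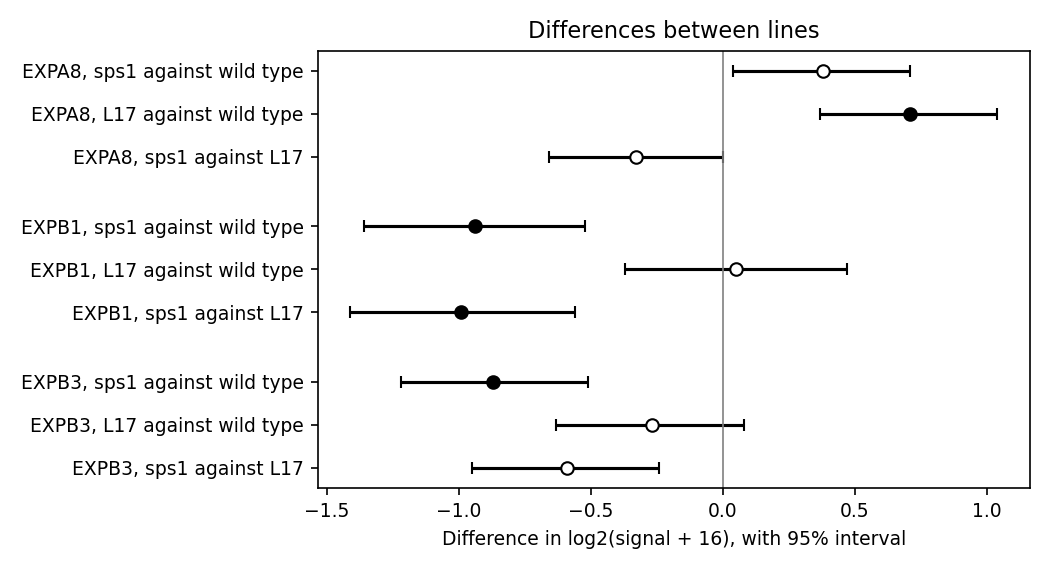
Differences between lines in log2(signal + 16) for each gene and comparison (horizontal axis), with unadjusted 95% intervals from the model and the line named first minus the line named second. Filled points passed a limma adjusted p of 0.05: EXPA8 in L17 against wild type (0.71), EXPB1 in sps1 against wild type (-0.94) and against L17 (-0.99), and EXPB3 in sps1 against wild type (-0.87).

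The log2 difference between EXPA8 and each beta expansin on the same array was larger in sps1 and in L17 than in wild type. The difference between 2 probe sets on the same array depends little on how that array was scaled. Its absolute size has no meaning, since probe sets differ in brightness, but its change between lines does. That change follows from the log2 differences of the 2 genes given above, so it restates them and is no separate support. How often pairs of other genes separate in this way was not examined. The log2 value of EXPA8 minus that of EXPB1 was 4.34, 3.95 and 4.16 in sps1, 3.48, 3.51 and 3.5 in L17, and 2.62, 2.91 and 2.98 in wild type. The 3 lines did not overlap, and the mean in sps1 exceeded that in wild type by 1.32 and that in L17 by 0.66, while L17 exceeded wild type by 0.66. Each of these differences gave p = 0.1 in an exact two-sided permutation test, the smallest value that 3 against 3 arrays allow.

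EXPA8 minus EXPB3 was 5.74, 5.98 and 5.82 in sps1, 5.44, 5.75 and 5.57 in L17, and 4.68, 4.78 and 4.36 in wild type. Here sps1 and L17 overlapped and both lay above wild type, by 1.24 and 0.98 on average (exact two-sided permutation p = 0.1 each). EXPB1 minus EXPB3 averaged 1.69 ± 0.32 in sps1, 2.09 ± 0.14 in L17 and 1.77 ± 0.35 in wild type (SD, n = 3 each). No 2 lines were separate for this pair. The means differed by -0.07 for sps1 against wild type, 0.32 for L17 against wild type and -0.39 for sps1 against L17 (exact two-sided permutation p = 0.8, 0.3 and 0.2), and the last of these is larger in size than the 0.26 of EXPA8 minus EXPB3 in the same comparison.

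**Figure D3:**
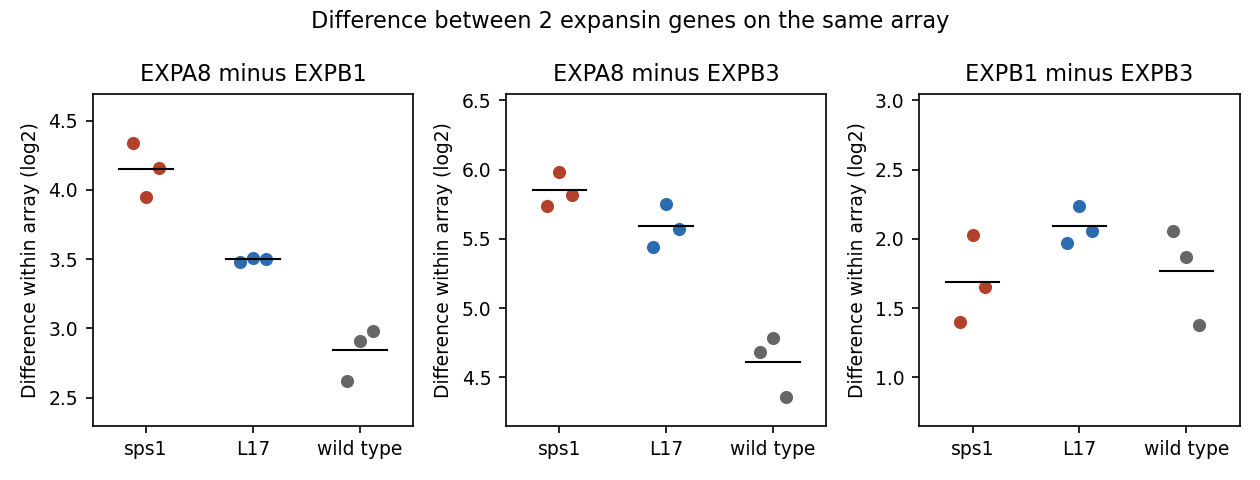
Difference in log2(signal + 16) between 2 genes on the same array (vertical axis, log2 units, not from 0, each panel spanning the same range) for sps1, L17 and wild type, with a line at the mean of 3 arrays. EXPA8 minus EXPB1 was highest in sps1 (mean 4.15) and lowest in wild type (mean 2.84), with L17 at 3.5, while for EXPB1 minus EXPB3 the lines overlapped.

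The spread between arrays of a line differed among the 3 genes. The SD of log2(signal + 16) of EXPA8 was 0.08 in sps1, 0.13 in L17 and 0.21 in wild type, and that of EXPB1 was 0.17 in sps1, 0.12 in L17 and 0.33 in wild type. For EXPB3 it was 0.19 in sps1, 0.23 in L17 and 0.04 in wild type. The wild type arrays were therefore the most scattered for EXPA8 and EXPB1 and the least for EXPB3.

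**Figure D4:**
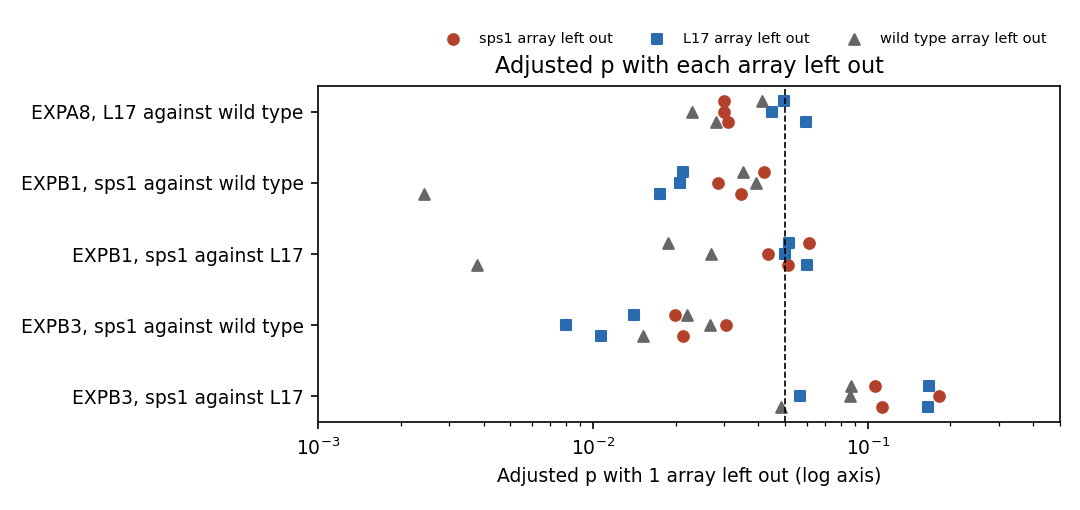
Limma adjusted p (horizontal log axis, dashed line at 0.05) of 5 comparisons with each of the 9 arrays left out in turn, with the symbol and colour giving the line of the array left out. The falls of EXPB1 and EXPB3 in sps1 against wild type stayed under 0.05 in all 9 fits, while EXPA8 in L17 (up to 0.0594) and EXPB1 in sps1 against L17 (up to 0.0611) crossed it.

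Whole seedlings hold several organs, and in bulk RNA fewer cells of a type and less RNA per cell cannot be told apart. Beside the marker calls below, 6.68% of all probe sets were called higher and 7.94% lower in sps1 against wild type. In L17 against wild type these shares were 5.32% and 6.12%, and in sps1 against L17 they were 3.14% and 3.72%. Of the root hair markers EXPA7 and EXPA18 were named here, both expansins of root hairs, and neither passed the test in any comparison with all 9 arrays. EXPA7 passed when wild type replicate 2 was left out, with log2 differences of -1.73 in sps1 (limma adjusted p = 0.00576) and -1.41 in L17 (0.0165). Their summed signal was 7.256 to 39.91 in sps1, 55.32 to 85.45 in L17 and 45.67 to 127.3 in wild type, and EXPA7 read 2.275 to 3.965 in sps1. Of 4 markers of ungerminated seed, 3 late embryogenesis abundant genes (LEA, LEA18 and LEA4-5) fell and the oleosin gene OLEO3 rose in sps1 against wild type, the OLEO3 call being lost without sps1 replicate 1 or 2 (adjusted p up to 0.0561). Their summed signal was 2942 to 3252 in sps1, 5499 to 6735 in L17 and 4928 to 9085 in wild type. LEA18, the brightest of them in L17 and wild type, averaged 1018 in sps1, 3199 in L17 and 4532 in wild type. OLEO3 averaged 1418, 2212 and 921.1 in the same order, so the sum mixes genes that moved in opposite directions. Of 5 shoot and greening markers, RCA, LHCB4.3 and PORB rose and LHCB4.2 fell in sps1 against wild type, with a summed signal of 22390 to 24070 in sps1, 16190 to 18020 in L17 and 16660 to 17860 in wild type. The LHCB4.3 call was lost without wild type replicate 2 or sps1 replicate 2 or 3 (adjusted p up to 0.0706). PORB, for the enzyme that reduces protochlorophyllide in seedlings, averaged 4248 in sps1, 4576 in L17 and 2043 in wild type. In L17 against wild type OLEO3 (log2 difference 1.25), LHCB4.3 (0.89) and PORB (1.19) rose and LEA4-5 (-1.33), LEA (-1.42) and LHCB4.2 (-1.15) fell, so markers of both lists also moved in the line in which EXPA8 was called, although their sums overlapped those of wild type. Of these the calls of LEA (adjusted p up to 0.135) and LEA4-5 (0.0565, without L17 replicate 2) were lost with 7 and 1 of 9 arrays left out. No gene from the lists for other root cells, guard cells, dividing cells and heat stress was named here. Whether the make-up of the seedlings plays a part in the expansin results was not tested.

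The ratio of 3' to 5' signal of ubiquitin control probe sets is a measure of how complete the labelled RNA was. For 1 of 2 control pairs it was higher in sps1 and in L17 than in wild type. For that pair it was 2.415 to 2.534 in sps1, 2.24 to 2.433 in L17 and 1.797 to 1.959 in wild type. An exact two-sided permutation test of sps1 or of L17 against wild type gave p = 0.1, the smallest possible. In the same pair sps1 and L17 overlapped (exact two-sided permutation p = 0.2). In the other pair the lines overlapped, at 1.056 to 1.464 in sps1, 1.062 to 1.274 in L17 and 0.931 to 1.27 in wild type. The part of RNA quality in the expansin results was not tested.

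The other expansins show how far the 3 genes resemble their family. Single-gene probe sets were found for 15 further expansin and expansin-like genes, and 2 probe sets naming several expansins were not used. Counts and medians over all 18 include EXPA8, EXPB1 and EXPB3 themselves, which were picked with earlier results known. In sps1 against wild type 2 of the 18 rose (EXLB1 and EXPA9) and 4 fell (EXPA16, EXPA20, EXPB1 and EXPB3). This stands beside 6.68% and 7.94% of all probe sets. In L17 against wild type 5 rose (EXLA2, EXLA3, EXLB1, EXPA8 and EXPA9) and 1 fell (EXPA16), beside 5.32% and 6.12%. Compared with L17, 1 (EXLB1) was higher and 5 (EXPA9, EXPA20, EXPB1, EXLA2 and EXLA3) were lower in sps1, beside 3.14% and 3.72%. Of these calls against L17 that of EXPA9 stood with any single array left out, and those of EXPA20, EXPB1, EXLA2, EXLB1 and EXLA3 were each lost with 4 to 7 of the 9 arrays left out, every one an array of L17 or sps1 apart from 1 loss of EXLA3. The median log2 difference over the 18 was -0.22 in sps1 against wild type, 0.12 in L17 against wild type, and -0.35 when sps1 was set against L17, beside -0.01, 0.01 and -0.02 over all probe sets. Of the 18, 12 had a mean signal of at least 100 over the 9 arrays, EXPA8, EXPB1 and EXPB3 among them. When the third wild type array was left out, 2 rose in sps1 against wild type (EXLA3 and EXLB1, no longer EXPA9) and 3 fell. In that fit 4 rose and 1 fell in L17 against wild type, and 1 was higher and 6 were lower in sps1 than in L17. The shares above come from all 9 arrays and do not carry over. With single arrays left out, the changed probe sets numbered 2087 to 3406, 1437 to 2596 and 719 to 2626 in these 3 comparisons, in that order.

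Among the 10 alpha expansins EXPA9 rose with EXPA8 in L17. EXPA9 read 3992, 4523 and 4798 in L17 and 1785, 1519 and 1390 in wild type, which is 1.5 ± 0.14 higher on the log2 scale (SE, limma adjusted p = 0.000387). In sps1 it read 2229, 2385 and 2252 and so lay between the lines, like EXPA8, but below L17 by a difference that passed (-0.95, limma adjusted p = 0.00545). Its rise in sps1 against wild type, 0.55 on the log2 scale (limma adjusted p = 0.0314), was not called without the third wild type array (0.47, adjusted p = 0.0582) nor when wild type replicate 2, L17 replicate 2 or 1 of the sps1 arrays was removed (0.0543 to 0.0983). EXPA16 went the other way, at 44.37, 39.04 and 43.42 in sps1, 70.15, 49 and 94.01 in L17, and 155.9, 222.5 and 233 in wild type. It fell by 1.90 on the log2 scale in sps1 (limma adjusted p = 0.000789) and by 1.35 in L17 (limma adjusted p = 0.00557). EXPA20 differed by -0.59 between sps1 and wild type (limma adjusted p = 0.0491), a call lost after median centring (0.0879) and with 8 of 9 single arrays left out, the third wild type array included (0.0689). EXPA4, EXPA7, EXPA15, EXPA18, EXPA21 and EXPA24 passed in no comparison.

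The other beta expansins gave no basis for comparison with EXPB1 and EXPB3. EXPB2 read 5.908 to 57.55 in sps1, 22.41 to 31.65 in L17 and 6.429 to 52.79 in wild type, and EXPB5 23.28 to 28.28 in sps1, 3.962 to 30.17 in L17 and 23.59 to 96.65 in wild type. Neither passed in any comparison at these low signals. Of 4 beta expansins 2 fell, EXPB1 and EXPB3 themselves, and 0 rose in sps1 against wild type by limma. This stands beside 7.94% lower and 6.68% higher of all probe sets. At an unadjusted p under 0.05, 0 of the 4 rose as well. Of the 4, 0 were called by limma in L17 against wild type, beside 11.4% of all probe sets called in either direction, and EXPB5 was the 1 gene with an unadjusted p under 0.05 there.

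Expansin-like genes encode proteins of the same fold for which wall loosening has not been shown. EXLB1 was higher in both lines than in wild type, at 1143, 1250 and 1090 in sps1, 495.8, 610.5 and 569.5 in L17, and 219.5, 246.2 and 382.3 in wild type. The 3 lines were separate. Over all probe sets sps1 lay wholly above L17 for 13.7% and wholly above wild type for 16.5%, and L17 wholly above wild type for 16.6%. EXLB1 rose by 2.01 ± 0.20 on the log2 scale in sps1 (SE, limma adjusted p = 0.000419), opposite to EXPB1 and EXPB3 in sps1. In L17 it rose by 0.98 (limma adjusted p = 0.0165). The call in L17 was lost without wild type replicate 2 or L17 replicate 2 or 3 (adjusted p between 0.0549 and 0.0651). EXLA3 rose by 1.78 in L17 (limma adjusted p = 0.00423), where it read 209.3 to 227, against 29.68 to 89.99 in wild type. In sps1 EXLA3 read 74.7 to 98.31, with a log2 difference from wild type of 0.59 (limma adjusted p = 0.19), which passed when the third wild type array was left out (0.91, adjusted p = 0.0162). EXLA1 (AT3G45970), with a locus number next to that of EXLA3 (AT3G45960), passed in no comparison. The rise of EXLA2 in L17 (0.86, limma adjusted p = 0.0448) did not survive the removal of any single array (0.0505 to 0.139).

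**Figure D5:**
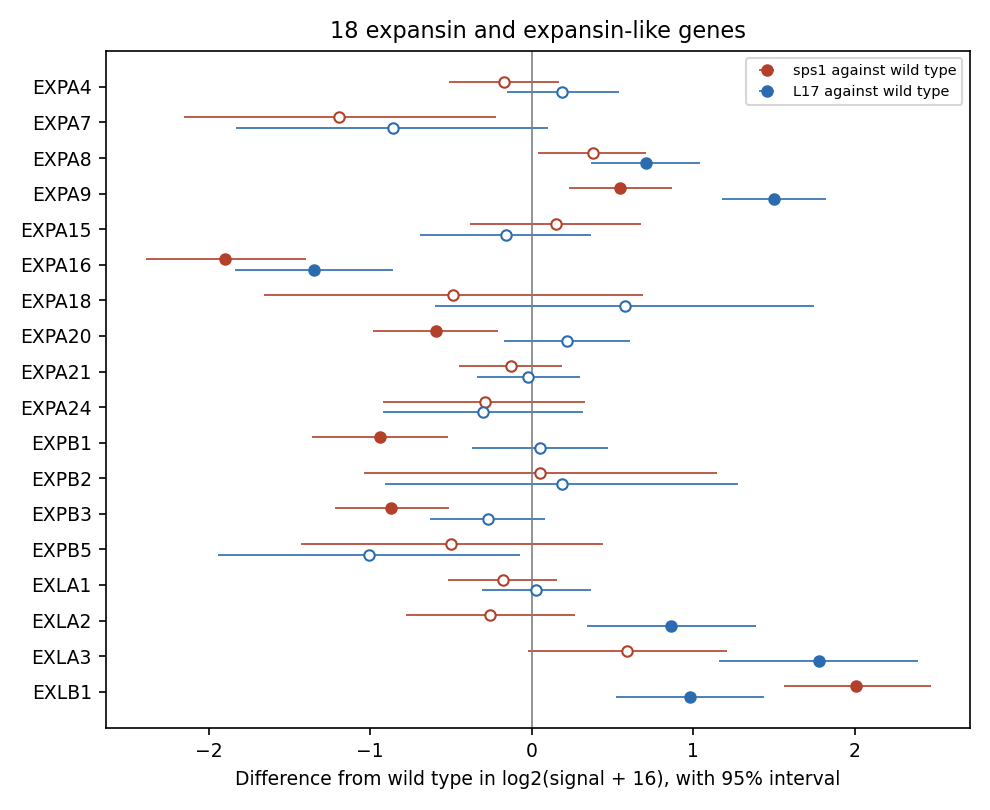
Differences from wild type in log2(signal + 16) of 18 expansin and expansin-like genes in sps1 and in L17 (horizontal axis), with unadjusted 95% intervals. Filled points passed a limma adjusted p of 0.05, and the beta expansins EXPB1 and EXPB3 were the 2 filled points of their branch, both in sps1.

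Genes with profiles most like those of the 3 expansins were found by Pearson's r over the 9 arrays among 6864 single-gene probe sets with a mean signal of at least 100. Other expansins were left out of this search, so their absence below says nothing. This is a description, since arrays of a line share their values and any gene with the same order of lines scores high. Closest to EXPA8 were AT1G09660 (r = 0.991), AT1G55210 (0.988), AT1G72740 (0.982), AT3G17120 (0.981) and AT4G24330 (0.98). AT1G55210 averaged 860.1 in sps1, 1407 in L17 and 547.3 in wild type, the order of lines seen for EXPA8. Closest to EXPB1 were AT1G01725 (0.98), AT5G17190 and AT5G61660 (0.978 each), AT3G53190 (0.971) and MTP11 (0.967), which encodes a manganese transporter. MTP11 averaged 329.4 in sps1, 1216 in L17 and 1178 in wild type. The genes nearest to EXPB3 were AT2G04340 (0.961), AT1G22885 (0.958), LPA19 (0.945), which encodes an assembly factor of photosystem II, AT4G25900 (0.942) and AT2G25890 (0.94). AT4G25900 averaged 697 in sps1, 1659 in L17 and 2153 in wild type.

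The protein-coding genes next to EXPA8, EXPB1 and EXPB3 in the RefSeq gene order did not pass the test. All 6 flanking genes had a single-gene probe set, and 0 were called by limma in sps1 or L17 against wild type, with 1 unadjusted p under 0.05 and the smallest adjusted p, 0.176, for AT2G40600 in sps1. Of all probe sets 14.6% were called in sps1 and 11.4% in L17 against wild type, so 0 of 6 says little about these genes.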

How the data were processed

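The authors deposited linear intensity values of 22810 probe sets on 9 arrays (3 lines, 3 arrays each). The submitters' processing notes name GCOS as software, while how probes were summarised is not given in the sources used here. Each array's deposited intensity values had a mean of 500.0 once 2% was trimmed at each end, and they were used without renormalization.

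Line and replicate number were read from each sample's title. No 2 arrays were identical. The 64 control probe sets were left out of the tests. Log2(signal + 16) of 22746 probe sets was modelled on line, without a block, using limma 3.58.1 (R 4.3.3) and moderated variances; p-values were adjusted by Benjamini-Hochberg across all probe sets, at a threshold of 0.05. The number of arrays limits the precision.

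Genes were named from the platform annotation and the RefSeq table of TAIR10.1: 13513 probe sets name 1 gene (13436 matched by gene ID), 503 several, and 8730 are unnamed here. The files name no genome build, so no coordinates are given, and sequences were not used here. Members and gene lists were chosen with earlier results of these data known. Lists by symbol covered expansins, xyloglucan, pectin and cellulose genes, wall proteins, auxin, gibberellin, brassinosteroid and PIF genes, and markers of root hair, root, seed, shoot, guard cells, dividing cells and heat stress. For lists up to 4 genes with the smallest adjusted p were named, and like patterns took the 5 highest r among genes other than expansins. Genes outside these rules were chosen after their values were seen. The alternatives tried were the replicate number as a block, a pseudocount of 1 or 64, a minimum mean signal of 100, quantile normalization, median centring, trended robust moderation, array weights, fits of 2 lines, each array left out, an adjusted p of 0.01 and a minimum fold of 1.2. The count of expansins without the third wild type array was chosen after seeing the data.

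Same-numbered arrays did not deviate together from their line means (r between -0.079 and 0.059 over 9 pairs), so replicate numbers were not used as pairs.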

Additional observations from a re-analysis of the deposited data

How the results depend on the processing

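EXPB3 in sps1 against wild type kept its direction and its call under all alternatives run, and EXPB1 in sps1 against wild type under all but the stricter adjusted p of 0.01 (-0.94, adjusted p = 0.0108). With the replicate number as a block, EXPA8 in L17 against wild type (0.71, adjusted p = 0.0536) and EXPB1 in sps1 against L17 (-0.99, 0.0507) missed the threshold and sps1 against L17 had 1013 changed probe sets, while no other call of these 3 genes changed. EXPA8 in L17 also missed it in a fit of 2 lines (0.71, 0.0546), at 0.01 and at a minimum fold of 1.2 (adjusted p = 0.1), and EXPB1 in sps1 against L17 at 0.01 and at that fold (-0.99, 0.0607). EXPB3 in sps1 against L17 passed at a pseudocount of 64 (-0.40), in the fit of probe sets with a mean signal of at least 100 (-0.59) and with array weights (-0.52). With single arrays left out the log2 difference was 0.59 to 0.80 for EXPA8 in L17, -1.05 to -0.89 for EXPB1 and -0.72 to -0.49 for EXPB3 in sps1 against L17. The causes were not tested.

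Counts of changed probe sets in sps1 against wild type were 3325, with 1474 at 0.01, 1688 at the minimum fold and 2087 to 3406 with single arrays left out. In L17 against wild type they were 2601, with 1024, 1208, 1611 in the fit of 2 lines and 1437 to 2596. In sps1 against L17 they were 1560, with 569, 662, 3048 with array weights and 719 to 2626. After median centring the log2 differences from wild type were -0.83 for EXPB1 and -0.76 for EXPB3 in sps1. Signals under 16 made up 16.5% to 21.3% of an array, where changes are compressed.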

Other observations

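Counts for the other lists stand against the share of all probe sets called, which was 6.68% higher and 7.94% lower in sps1 against wild type, 5.32% and 6.12% for L17 with wild type as its reference, and 3.14% and 3.72% when sps1 was set against L17. Of 10 xyloglucan enzymes 2 rose and 2 fell in sps1 against wild type, 2 rose and 1 fell in L17 against wild type, and 0 were higher and 3 lower in sps1 than in L17 by limma (0 higher and 6 lower at an unadjusted p under 0.05). XTH32, of the xyloglucan endotransglucosylase family, averaged 223.1 in sps1, 421.9 in L17 and 92.94 in wild type, an order of lines like that of EXPA9. XTH16 averaged 469.2 in sps1, 770.4 in L17 and 1265 in wild type, with log2 differences from wild type of -1.41 in sps1 and -0.70 in L17 (limma adjusted p = 0.000801 and 0.0263, the call in L17 being lost with 5 of 9 arrays left out, wild type replicates 1 and 2 and each L17 array). XTH33 had log2 differences from wild type of 0.60 in sps1 and 1.05 in L17, the call in sps1 being lost without the third wild type array (0.0597) and 4 others. XTH19 had a log2 difference of -1.07 in sps1 against L17 (limma adjusted p = 0.0154), a call lost without L17 replicate 2 or 3 or sps1 replicate 2.

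Of 2 pectin enzymes PME61, a pectin methylesterase, was near the bottom of the scale in both lines, at an average of 13.51 in sps1 and 13.63 in L17, against 308.2 in wild type (limma adjusted p = 0.000287 and 0.000348). GAUT15 passed in no comparison. Of 23 genes of the cellulose list, which also takes in cellulose synthase-like and endoglucanase families, 1 rose and 2 fell in sps1 against wild type. In L17 against wild type 1 fell. In these 2 comparisons the share of calls was no larger than the 14.6% and 11.4% of all probe sets called in either direction. In sps1 against L17 1 was higher and 1 lower, beside 3.14% and 3.72% of all probe sets. CSLC04, of the family that makes the xyloglucan backbone, fell in both, to an average of 460 in sps1 and 597.3 in L17, against 1776 in wild type (limma adjusted p = 0.000451 and 0.00188). GH9C2, an endoglucanase, averaged 849.6 in sps1 and 1648 in L17 (log2 difference -0.94, limma adjusted p = 0.00734), and GH9A3 and GH9A4 had log2 differences of -1.01 and 0.66 in sps1 against wild type at low signals, calls lost with 2 and 4 of 9 arrays left out (sps1 replicates 1 and 2, and wild type replicates 1 and 2 with sps1 replicates 1 and 3). The wall protein list held only PRP39 and PRP39-2, whose products act in splicing, and so says nothing on walls.

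Of 11 auxin genes 2 rose and 1 fell in sps1 against wild type (beside 6.68% and 7.94% of all probe sets), with log2 differences of 0.99 for IAA20, 0.87 for IAA34 and -0.62 for GH3.3, the last being lost with 7 of 9 arrays left out, the third wild type array included (0.0774). IAA29 had a log2 difference of 0.71 in L17 and GID1B, 1 of 3 gibberellin receptors, one of -0.77 in sps1, and either call was lost with any single array left out. Brassinosteroid and PIF genes of the lists were not analysed here.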
